A study of Mus musculus with 235 samples.

Results

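Cadherins and protocadherins are calcium-dependent adhesion proteins of the cell surface, and the genes described here are those of the deposited count table whose symbol starts with Cdh and a digit or with Pcdh, at a mean of at least 2 CPM (counts scaled to a common library size) over all libraries. Of the 27998 genes in the table, 92 matched the name and 50 also reached that level. The nearest gene inside the threshold was Pcdhb8 at 2.06 CPM and the nearest outside was Pcdhb13 at 1.93 CPM. By family the members were 3 of 5 type I classical cadherins, 11 of 13 type II classical cadherins, the GPI-anchored Cdh13, all 4 delta-1 and all 5 delta-2 protocadherins, 2 of 3 other non-clustered protocadherins, and 1 of 14 alpha, 16 of 22 beta and 7 of 21 gamma genes of the protocadherin clusters. Of 4 further cadherins outside these families, none reached the threshold.

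The study treated adult male C57Bl/6 mice aged 3 months with dexamethasone, a synthetic agonist of the glucocorticoid receptor, at 10 mg/kg, or with 0.9% saline as vehicle, both by intraperitoneal injection, and collected the brain 4 h later. There were 15 animals in each arm. Strain, sex and age were the same in all groups, and 8 regions, labelled dCA1, vCA1, dDG, vDG, PFC, AMY, PVN and CER, were punched from brains that had been perfused. The 235 libraries give 15 per region and arm, except 14 for PFC dexamethasone, 14 for PVN vehicle, 13 for dCA1 dexamethasone and 14 for vCA1 vehicle.

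As background, classical cadherins join cells by binding cadherins on the neighbouring membrane, and their cytoplasmic tails hold catenins that connect the junction to actin. Type I members bind mostly their own kind, whereas type II members bind selectively within subgroups, and combinations of them mark neuronal populations and synapses. Delta protocadherins adhere more weakly and act in dendrite and synapse development, and the alpha, beta and gamma cluster genes are expressed in different combinations from one neuron to the next, which gives neurites a means of telling self from other.

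A library held 268538 to 1451422 counts (median 742957), and the members together held a median of 0.201% of a library's counts (range 0.117% to 0.262%). CPM values of single members therefore often rest on few counts, and ranges over libraries include that counting error. RNA integrity (RIN) differed between regions, from 7.1 to 8.6 in PFC, 2.2 to 7.6 in AMY and 4.1 to 7.7 in dDG. Comparisons of regions were not adjusted for it. The tags mark the 3′ ends of transcripts, so a CPM value is a share of transcripts and is compared here between samples of 1 gene only. Of the 7 gamma members and the alpha member, 27.8% to 44.9% of the annotated exon bases are shared with other genes of their cluster on the same strand, since the clusters end in constant exons, and their counts are uncertain for that reason. The beta genes are close paralogs without that shared end, and how reads matching several of them were counted is not given in the sources used here. Exons of genes on the opposite strand cover 63.5% of the exon bases of Pcdhb12 and 33.0% of those of the alpha member, Pcdha11.

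Some punches did not carry the markers of their label. Gabra6, which defines cerebellar granule cells, was at 0 in 26 of the 30 CER libraries and reached at most 15.4 CPM there. Prox1, which marks dentate granule cells, averaged 514 ± 145 CPM (SD, n = 15) in dCA1 vehicle libraries, beside 455 ± 253 CPM (n = 15) in dDG, 264 ± 143 CPM (n = 15) in vDG and 104 ± 39.8 CPM (n = 14) in vCA1. Outside CER, 6 libraries of vDG and vCA1 had 25.2 to 337 CPM of Gabra6, and 23 libraries, 13 of them from dDG, had at least 1000 CPM summed over 5 choroid plexus markers. Results were recomputed without these 29 libraries, an alternative chosen after seeing the data, and calls of the members named with values that were lost without them are given below.

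In vehicle animals Pcdh20, Cdh9, Cdh22 and Pcdh11x were among the members that differed widely between the 8 regions. By edgeR's quasi-likelihood F test with the animal as a block, 26 of the 37 members tested differed among regions at a Benjamini-Hochberg adjusted p under 0.05. That is 70.3%, beside 73.3% of all genes tested, so the count itself is close to the background. The 13 members that did not pass the filter on low counts were Cdh18 and cluster genes, and they have no test here. Against the mean of the other 7 regions, dCA1 differed in 20 members (39.1% of all genes tested did), dDG in 20 (32.8%), vDG in 10 (10.6%) and vCA1 in 6 (19.7%). PVN differed in 18 (41.1%), CER in 17 (47.9%), PFC in 16 (39.5%) and AMY in 14 (25.1%). As shares of the 37, these were 54.1% in dCA1 and in dDG, 37.8% in AMY and 27.0% in vDG, above the background, and 43.2% to 48.6% in PFC, CER and PVN and 16.2% in vCA1, closer to it.

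**Figure D1:**
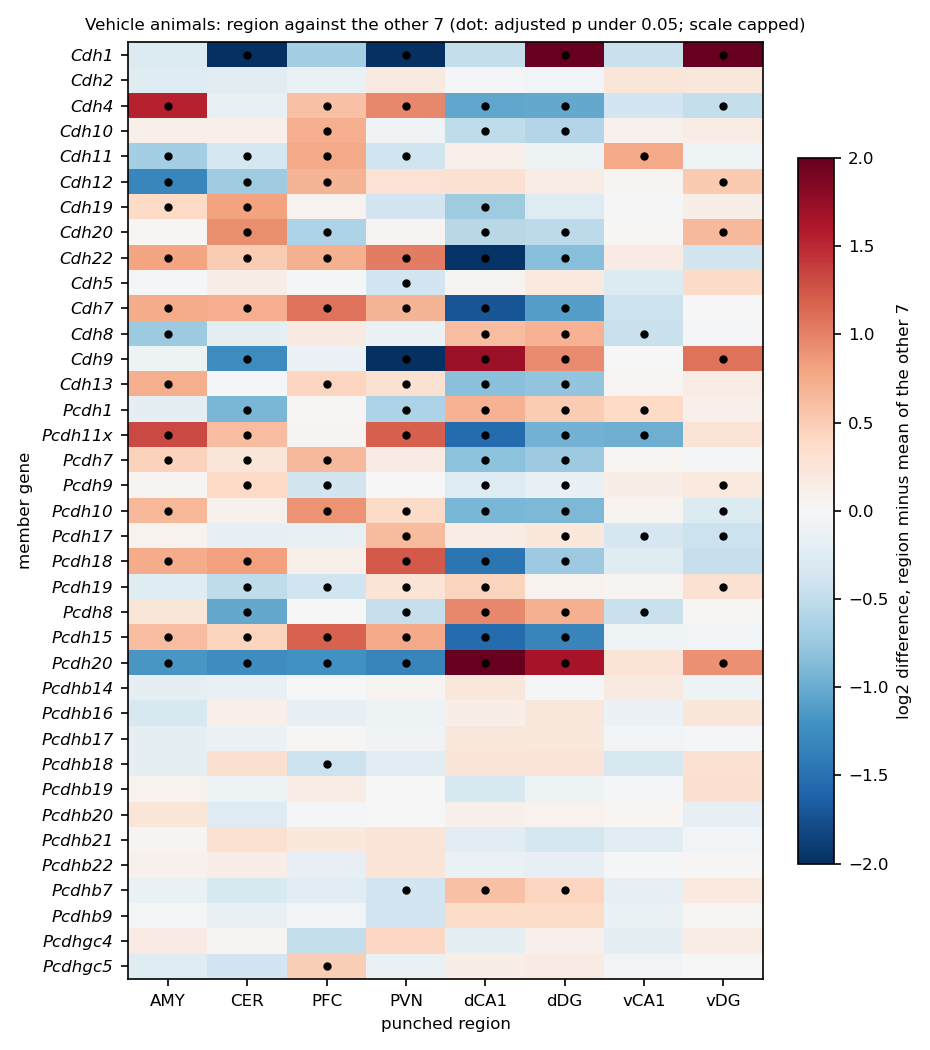
Heat map of the 37 tested members (rows) in vehicle libraries of the 8 regions (columns). Colour gives the log2 difference of a region from the mean of the other 7, capped at 2 in either direction, and dots mark an adjusted p under 0.05. Pcdh20 and Cdh9 are highest in dCA1, Cdh4 and Pcdh11x in AMY, and most cluster genes are near 0 throughout.

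Among the type I cadherins, Cdh2 (N-cadherin, the general neuronal and synaptic classical cadherin) was nearly level, with regional means from 22.7 ± 7.31 CPM (SD, n = 15) in AMY to 30.9 ± 9.88 CPM (n = 14) in vCA1. No region differed from the other 7 in Cdh2, although the F test over regions passed with an adjusted p of 0.0138. In dexamethasone libraries that F test did not call Cdh2. Cdh4 (R-cadherin) was higher in AMY than in the other 7 regions by 1.54 ± 0.11 (log2 difference ± SE, adjusted p = 1.16e-22), with AMY libraries between 31.9 and 66.2 CPM (median 50.03). The dCA1 libraries, at 3.31 to 19.3 CPM of Cdh4, all lay below every AMY library.

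Cdh1 (E-cadherin, the epithelial cadherin of brain coverings and other epithelia) was found mainly in dentate punches. In vDG it ran from 1.08 to 61.7 CPM with a median of 25.5 CPM. In dDG it ran from 0 to 45.2 CPM with a median of 3.39 CPM and 3 libraries at 0. The mean was 1.23 CPM or less in each of the other 6 regions. Cdh1 reached the level of the rule and of the filter only through the dentate punches, so these levels are a description. Its place among the 26 members that passed the F test, and in the counts for single regions, is not read as a result. Of the 15 dDG vehicle libraries, 8 stood apart by choroid plexus markers. Over 5 alternatives the log2 difference of dDG from the other 7 regions in Cdh1 ran from 0.71 to 2.64, and 4 of them passed.

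Cdh1 varied between vDG libraries together with markers of fibroblasts and meninges (Dcn, Col1a1, Col1a2, Lum and Igf2, summed). In the 15 vehicle libraries, where that sum ran from 155 to 711 CPM, Pearson's r on the log2(CPM + 1) scale was 0.781 and Spearman's rho 0.814 (permutation tests, adjusted p = 0.00277 and 0.0102 over 32 relations, 16 marker lists in each arm). In the 15 dexamethasone libraries, where the sum ran from 121 to 803 CPM, r was 0.854 and rho 0.664 (permutation tests, adjusted p = 0.00277 and 0.0898). Leaving out the 2 libraries farthest from the median of the sum gave an r of 0.750 in vehicle and 0.789 in dexamethasone. Each plate held fewer than 6 libraries of an arm, too few for a value within plates. Of the other relations, 2 passed by Pearson's r and not by Spearman's rho. They were hypothalamus markers in vehicle (r = -0.676 and rho = -0.707, permutation tests, adjusted p = 0.00277 and 0.0672) and oligodendrocyte markers in dexamethasone libraries (r = 0.704 and rho = 0.636, adjusted p = 0.0251 and 0.106). The part of any of these cells in the level of Cdh1 was not tested.

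Of the 10 type II cadherins tested, 9 passed the F test among regions, beside 73.3% of all genes tested. Cdh9, known from the synapse between dentate mossy fibres and CA3 neurons, was highest in dCA1 at 16.1 to 98.2 CPM with a median of 77.3 CPM, 1.71 ± 0.17 higher than the other 7 regions (adjusted p = 3.23e-16). It was also higher in vDG by 1.08 ± 0.18 (8.05 to 123 CPM, median 35.4, adjusted p = 1.42e-06), and in PVN every library was at 11.6 CPM or below. Cdh7 was highest in PFC (27.0 to 57.6 CPM, median 47.1), by 1.09 ± 0.14 (adjusted p = 5.15e-11), and Cdh20 was highest in CER (14.4 to 47.4 CPM, median 25.7), by 0.92 ± 0.13 (adjusted p = 9.67e-10). Cdh11, a type II cadherin also known from osteoblasts and other mesenchyme, was higher in vCA1 by 0.76 ± 0.11 (41.2 to 80.3 CPM, median 58.3, adjusted p = 5.93e-09) and in PFC by 0.76 ± 0.10 (30.0 to 95.5 CPM, median 59.6, adjusted p = 3.83e-10). Cdh22 averaged 37.3 ± 7.89 CPM in PVN and 5.95 ± 5.19 CPM in dCA1, a ratio of 6.27 between the highest and the lowest region, and every PVN library exceeded every dCA1 library. Cdh13 (T-cadherin, a GPI-anchored cadherin without a cytoplasmic tail) averaged 102 ± 17.1 CPM in AMY and 39.2 ± 11.5 CPM in dCA1. Cdh12 averaged 31.4 ± 7.75 CPM in PFC and 9.12 ± 3.58 CPM in AMY, and Cdh8 84.9 ± 20.3 CPM in dDG and 36.0 ± 9.29 CPM in AMY.

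Of the non-clustered protocadherins, Pcdh20 was highest in the dorsal hippocampal punches. It was at 80.5 to 390 CPM in dCA1 with a median of 272 CPM, 2.10 ± 0.12 higher than the other 7 regions (adjusted p = 4.36e-31), and at 71.2 to 357 CPM in dDG with a median of 180 CPM, 1.64 ± 0.12 higher (adjusted p = 2.66e-22). In vDG it was higher by 0.91 ± 0.13 (45.6 to 333 CPM, median 114, edgeR adjusted p = 5.95e-08), and in vCA1 it averaged 94.8 ± 35.2 CPM. PVN libraries held 18.7 to 45.0 CPM of Pcdh20, below every dCA1 and dDG library. Pcdh8 (arcadlin, a delta-2 member induced by neuronal activity) was also higher in dCA1, by 0.96, and in dDG, by 0.71. Its mean was 121 ± 33.2 CPM in dCA1, 101 ± 52.2 CPM in dDG and 34.8 ± 17.0 CPM in CER.

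Pcdh11x, Pcdh15, Pcdh18 and Pcdh10 had the opposite order, low in dCA1 and dDG. In vCA1 Pcdh11x was low as well, at 29.4 ± 9.83 CPM beside 30.3 ± 12.1 CPM in dDG. Pcdh11x, an X-linked delta-1 member, was higher in AMY by 1.32 ± 0.10 (71.9 to 173 CPM, median 114, adjusted p = 8.08e-21) and in PVN by 1.19 ± 0.11 (64.7 to 171 CPM, median 99.9, adjusted p = 6.85e-18), and its highest dCA1 library was at 38.6 CPM. Pcdh15, known for the tip links of hair cells, was highest in PFC, at 31.3 to 161 CPM with a median of 94.8 CPM, by 1.19 ± 0.11 (adjusted p = 2.95e-16). Pcdh18 (delta-2) was higher in PVN by 1.23 ± 0.15 (16.7 to 32.6 CPM, median 23.3, adjusted p = 1.58e-11) and in CER by 0.82 ± 0.16 (0 to 35.9 CPM, median 17.5, adjusted p = 1.01e-05). Pcdh10, a delta-2 member with roles in axon growth and synapse elimination, averaged 340 ± 48.8 CPM in PFC and 115 ± 28.1 CPM in dCA1, and the ranges of these groups did not overlap. Pcdh17, a delta-2 member known from presynaptic terminals, was higher in PVN by 0.64 (301 ± 46.1 CPM) and in dDG by 0.21 (231 ± 64.5 CPM), and lower in vDG by -0.43 (159 ± 51.0 CPM). Pcdh1 was higher in dCA1 by 0.69 (41.1 ± 11.7 CPM, adjusted p = 6.51e-07) and in dDG by 0.51 (35.7 ± 11.2 CPM, adjusted p = 0.000342). In vCA1 it was higher by 0.39 ± 0.12 (16.5 to 63.2 CPM, median 33.9, adjusted p = 0.0139), a call that was lost without the libraries that stand apart (0.29, adjusted p = 0.102).

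Of the 24 members in the protocadherin clusters, 12 were tested among regions. Of these, 2 passed the F test, Pcdhb7 and Pcdhb18 (adjusted p = 5.49e-06 and 0.00292), beside 73.3% of all genes tested. Pcdhb7 was higher in dCA1 (24.5 ± 7.98 CPM) and dDG (22.4 ± 8.49 CPM) than in the other 7 regions. In dexamethasone libraries the F test did not call Pcdhb18, and it called Pcdhb9, Pcdhb22 and Pcdhgc5. Summed over all 22 beta genes, regional means in vehicle ran from 159 ± 23.9 CPM in PVN to 187 ± 27.2 CPM in dCA1. The 21 gamma genes summed to 44.3 ± 14.4 CPM in CER and to 58.0 ± 19.3 CPM in vDG, and the 14 alpha genes to 5.30 ± 2.67 CPM in CER and 9.04 ± 2.44 CPM in PVN. For the gamma cluster the distance between CER and vDG was smaller than the SD of either region, and for the alpha cluster that between CER and PVN was larger. Without the filter on low counts, Pcdhb11, Pcdhb4 and Pcdhga12 also passed.

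Dorsal and ventral punches of the same vehicle animals differed in many members. Between dCA1 and vCA1, in 14 animals, 15 of the 22 members tested passed (7 higher in dCA1 and 8 lower), beside 21.1% of all genes tested (11.2% higher and 9.96% lower). Higher in dCA1 were Pcdh20 by 1.57 ± 0.11, Cdh9 by 1.49 ± 0.17, Pcdh8 by 1.23 ± 0.12 and Cdh8 by 0.94 ± 0.12 (edgeR adjusted p from 2.93e-11 to 1.04e-06), and, by less, Pcdhb7, Pcdh17 and Pcdh19. Lower in dCA1 were Pcdh15 by a log2 difference of -1.21 ± 0.16, Pcdh10 by -0.82 ± 0.10, Cdh13 by -0.76 ± 0.14 and Pcdh7 by -0.75 ± 0.12 (adjusted p from 3.40e-07 to 0.000148), and also Cdh19, Cdh11, Cdh10 and Pcdh9. In dexamethasone libraries the dCA1 to vCA1 difference was 0.49 for Cdh9 (adjusted p = 0.148), 0.64 for Pcdh8 (adjusted p = 0.0196) and 0.98 for Pcdh20 (adjusted p = 0.000211), and Cdh9, Cdh11, Cdh19, Pcdh19 and Pcdhb7 were not called there.

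Between dDG and vDG, in 15 animals, 11 of 23 members passed (2 higher in dDG and 9 lower), beside 11.6% of all genes tested (5.92% higher and 5.63% lower). Cdh8 was higher in dDG by 0.65 ± 0.14 and Pcdh17 by 0.56 ± 0.13. Pcdh15 was lower in dDG by -1.10 ± 0.21, Pcdh11x by -1.07 ± 0.16 and Cdh20 by -1.04 ± 0.20 (adjusted p from 8.15e-05 to 0.00100), and Cdh7, Cdh13, Cdh10, Pcdh7, Pcdh10 and Pcdh9 were lower as well. Of the 21 members tested in both pairs, 8 passed in both (38.1%) and 18 had the same sign (85.7%), beside 7.45% and 68.6% of the 8478 genes tested in both.

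The sum of 6 dentate granule markers (Dsp, Stxbp6, Lct, Tdo2, Plk5 and Npnt) ran from 270 to 890 CPM in dCA1 and from 60.5 to 178 CPM in vCA1, with no overlap. It ran from 107 to 1020 CPM in dDG and from 98.6 to 578 CPM in vDG, where the ranges overlapped. With the mean log2 level of these markers as a covariate, 0 members passed the edgeR test between dCA1 and vCA1 (2 at an unadjusted p under 0.05), beside 0 of all 8712 genes tested. Between dDG and vDG 2 passed (Cdh9 and Pcdh19, neither among the 11), beside 1.99% of all genes. The lost calls between dCA1 and vCA1 did not all come with smaller differences: Cdh19 went from -0.60 to -1.26, while Pcdh15 went from -1.21 to -0.18, and Cdh9 was at 1.07, Pcdh8 at 1.00 and Pcdh20 at 0.97. For dCA1 and vCA1 the position of the punch and its dentate content cannot be told apart. Without the libraries that stand apart, 13 members passed between dCA1 and vCA1 in 11 animals (18.4% of all genes tested), where Cdh19 (-0.55, adjusted p = 0.0885) and Pcdhb7 (0.54, adjusted p = 0.0872) lost their calls, and 2 (Cdh13 and Pcdh11x) passed between dDG and vDG in 6 animals (2.74%). The 9 members that lost their call there kept their sign, with values such as -0.88 for Pcdh15 (adjusted p = 0.0923) and 0.42 for Cdh8 (adjusted p = 0.246).

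**Figure D2:**
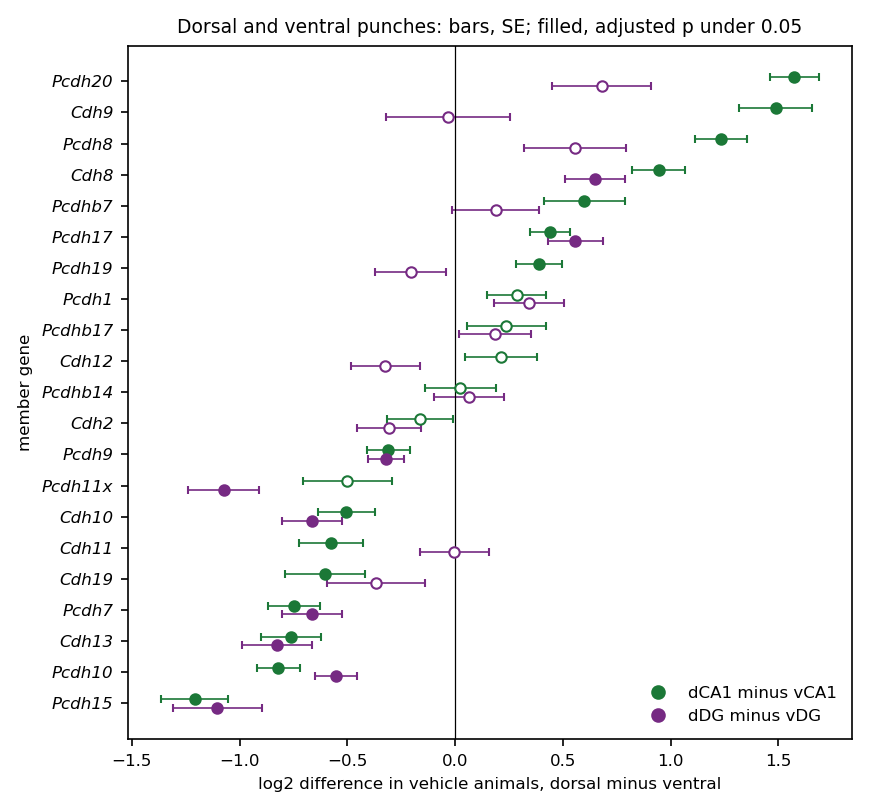
Log2 difference of dorsal minus ventral punches of vehicle animals (horizontal axis) for the 21 members tested in both pairs (rows). Green points give dCA1 minus vCA1 and purple points dDG minus vDG. Each member has 1 point per pair, bars are SE, and filled points passed the threshold. Pcdh15 is lower dorsally in both pairs (-1.21 and -1.10) and Cdh8 higher in both (0.94 and 0.65).

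After 4 h of dexamethasone, Cdh10 (a type II classical cadherin) was lower in the largest number of regions, and Cdh11, Cdh9, Pcdh19, Pcdh1 and Cdh8 were lower and Pcdh11x and Cdh19 higher in 1 or 2 regions each. At most 4 members passed an adjusted p of 0.05 in a region. They were 4 of 22 tested in dCA1 (4.68% of all genes tested), 4 of 27 in PVN (5.63%) and 3 of 28 in vCA1 (5.45%). CER had 2 of 23 (6.18%), PFC 2 of 28 (6.14%), AMY 1 of 26 (5.62%) and vDG 1 of 31 (3.93%). As shares of the members tested, these were 18.2% in dCA1, 14.8% in PVN and 10.7% in vCA1, above the background, and 3.23% to 8.70% in the other 4, near it. With the replicate number as a block, AMY had 4 (Cdh19, Pcdh1 and Pcdh11x in addition). In dDG, 0 of 21 passed with edgeR (3.7% of all genes tested), 3 had an unadjusted p under 0.05, and DESeq2 called 1, Cdh1. Median log2 changes of the tested members lay between -0.11 in CER and 0.05 in vCA1, beside -0.02 to 0.00 over all genes tested.

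**Figure D3:**
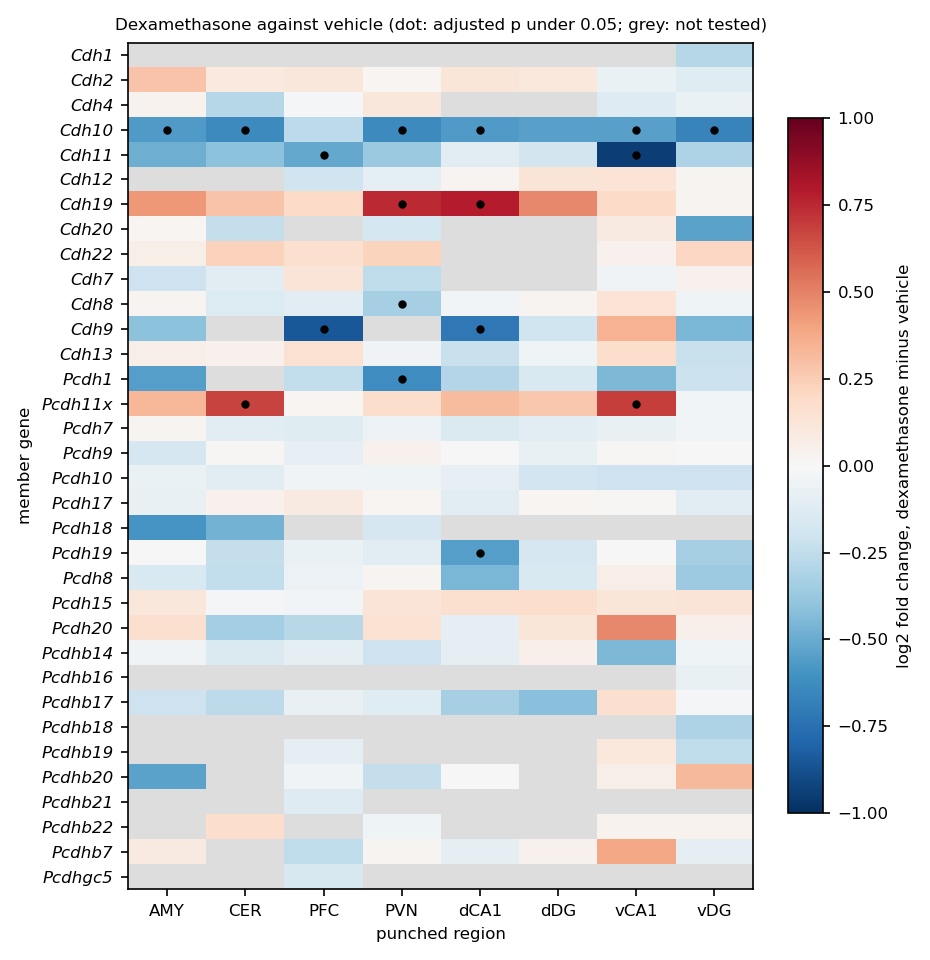
Heat map of the log2 change with dexamethasone for the 34 members tested in at least 1 region (rows) in the 8 regions (columns). Dots mark an adjusted p under 0.05 and grey cells were not tested. Cdh10 is below 0 in all 8 columns with a dot in 6.

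Promoter sequences were taken from a set of promoter windows at RefSeq starts for GRCm38.p6. That set held 20 windows, of 17 of the 50 members, and the other members have no window in it. They are shown for Cdh10, Cdh9, Cdh8 and Pcdh19, which fell in single regions as described next, and for Pcdh10, which fell in the mean over regions and was the member with a match. Each line gives the 250 bases before a RefSeq start, 5′ to 3′ on the strand of the gene, and capitals mark AGAACA or its reverse complement TGTTCT, the core of the glucocorticoid receptor motif.
Cdh10 chr15:18820079-18820328 (+): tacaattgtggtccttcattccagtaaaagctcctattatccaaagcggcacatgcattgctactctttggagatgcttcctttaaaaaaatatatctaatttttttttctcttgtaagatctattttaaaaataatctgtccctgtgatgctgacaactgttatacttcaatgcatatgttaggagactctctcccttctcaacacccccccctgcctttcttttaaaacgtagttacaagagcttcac
Cdh9 chr15:16728665-16728914 (+): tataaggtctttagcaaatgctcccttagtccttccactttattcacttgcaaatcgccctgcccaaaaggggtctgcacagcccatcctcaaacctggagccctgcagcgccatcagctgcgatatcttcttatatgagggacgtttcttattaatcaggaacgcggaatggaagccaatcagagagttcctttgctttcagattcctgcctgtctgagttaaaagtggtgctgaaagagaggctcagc
Cdh8 chr8:99416472-99416721 (-): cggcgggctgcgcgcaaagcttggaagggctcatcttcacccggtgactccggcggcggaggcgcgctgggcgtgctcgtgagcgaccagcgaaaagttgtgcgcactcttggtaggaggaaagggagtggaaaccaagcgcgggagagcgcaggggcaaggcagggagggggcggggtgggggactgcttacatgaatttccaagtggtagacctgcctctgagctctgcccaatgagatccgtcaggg
Pcdh19 chrX:133688994-133689243 (-): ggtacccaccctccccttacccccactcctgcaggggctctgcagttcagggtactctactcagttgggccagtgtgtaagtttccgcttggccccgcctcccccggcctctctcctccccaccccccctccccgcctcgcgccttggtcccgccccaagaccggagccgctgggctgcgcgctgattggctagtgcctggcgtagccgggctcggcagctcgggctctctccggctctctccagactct
Pcdh10 chr3:45378148-45378397 (+): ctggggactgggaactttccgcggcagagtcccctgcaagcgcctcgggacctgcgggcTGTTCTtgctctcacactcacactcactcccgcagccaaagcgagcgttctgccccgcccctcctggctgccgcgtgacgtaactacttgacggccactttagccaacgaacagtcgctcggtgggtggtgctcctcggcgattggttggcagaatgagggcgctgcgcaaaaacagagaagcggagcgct
The core motif was found, on either strand, in 1 of the 20 member windows, that of Pcdh10, 191 bases before the start. Over all 32851 windows of 27025 genes, 5284 held it (16.1%), and 3 held the palindrome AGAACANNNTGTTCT, none of them of a member. The GC content was 36.8% in the Cdh10 window, 48.0% in that of Cdh9, 64.4% in that of Cdh8, 69.2% in that of Pcdh19 and 63.2% in that of Pcdh10. The search covers these letters in these windows alone.

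Cdh10, on chromosome 15 (mm10 positions 18818947 to 19014236, plus strand), was lower with dexamethasone in 6 of 8 regions, the widest reach among the members, and had negative changes in the other 2. In AMY its vehicle libraries ran from 45.3 to 93.2 CPM with a median of 64.4 CPM, and the dexamethasone libraries from 34.1 to 61.8 CPM with a median of 40.4 CPM (log2 change -0.57 ± 0.11 SE, adjusted p = 0.000214). In CER they ran from 27.4 to 88.7 CPM (median 66.2) and from 33.0 to 51.6 CPM (median 41.6), a change of -0.63 ± 0.12 (adjusted p = 0.000211). In PVN they ran from 40.5 to 74.2 CPM (median 56.5) and from 13.2 to 54.1 CPM (median 34.1), a change of -0.64 ± 0.12 (adjusted p = 0.000243). In each of these 3 regions all 15 dexamethasone libraries were below the vehicle median, although the ranges overlapped.

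In vDG, Cdh10 ran from 41.2 to 92.0 CPM (median 62.4) in vehicle and from 22.0 to 68.1 CPM (median 36.7) in dexamethasone libraries, a change of -0.66 ± 0.14 (adjusted p = 0.00210). In vCA1 it ran from 44.7 to 97.6 CPM (median 60.1) and from 23.8 to 66.1 CPM (median 42.6), a change of -0.54 ± 0.12 (adjusted p = 0.00298). In dCA1 it ran from 31.0 to 69.4 CPM (median 45.5) and from 21.4 to 57.1 CPM (median 26.0), a change of -0.56 ± 0.16 (adjusted p = 0.0254). The dCA1 call was lost without the libraries that stand apart (-0.50, adjusted p = 0.182). Changes that did not pass were -0.54 ± 0.18 in dDG (24.1 to 93.1 CPM against 17.3 to 53.9 CPM, adjusted p = 0.0946) and -0.26 ± 0.09 in PFC (75.7 to 110.5 CPM against 52.3 to 101 CPM, adjusted p = 0.0712). In dDG Cdh10 was called with the replicate number as a block (-0.56, adjusted p = 0.00342), with date and plate in the model (-0.54, 0.0102) and with the dentate level as a covariate (-0.51, 0.0224), and in PFC with upper-quartile scaling (-0.27, 0.0452). In every region Cdh10 was lower on all 4 plates and on the 4 punching dates that had at least 2 libraries of each arm, and 1 further date, with 1 vehicle library a region, was not compared. In bulk tissue, fewer cells of a type and less RNA per cell cannot be told apart, here and in the changes that follow.

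Cdh11, on chromosome 8 (102632995 to 102785111, minus strand), fell most in vCA1. Its vehicle libraries there ran from 41.2 to 80.3 CPM (median 58.3) and its dexamethasone libraries from 19.0 to 45.2 CPM (median 29.9), a change of -0.94 ± 0.11 (adjusted p = 4.19e-08). In PFC it ran from 30.0 to 95.5 CPM (median 59.6) in vehicle and from 21.9 to 59.1 CPM (median 44.0) in dexamethasone libraries, a change of -0.51 ± 0.12 (adjusted p = 0.00335). In vCA1, 13 of the 14 vehicle libraries lay above every dexamethasone library. The other 6 changes were also negative, from -0.11 in dCA1 to -0.49 in AMY, and did not pass. With the replicate number as a block, edgeR called Cdh11 in PVN as well (-0.46, adjusted p = 0.0479). The difference of vCA1 from the other 7 regions in Cdh11, 0.76 in vehicle animals, was 0.16 in dexamethasone libraries (adjusted p = 0.322).

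Cdh9, on chromosome 15 (16778101 to 16857094), was lower in PFC and dCA1. DESeq2 also called it lower in CER (-0.997, adjusted p = 0.0257), where it did not pass the filter of the edgeR test. In PFC it ran from 7.60 to 48.1 CPM (median 25.8) in vehicle and from 0 to 18.9 CPM (median 13.2) in dexamethasone libraries, a change of -0.85 ± 0.23 (adjusted p = 0.0123). In dCA1 it ran from 16.1 to 98.2 CPM (median 77.3) and from 11.0 to 68.9 CPM (median 41.4), a change of -0.71 ± 0.17 (adjusted p = 0.00854). All dexamethasone libraries of both regions were below the vehicle median. In vCA1 the change was 0.35 and did not pass (adjusted p = 0.507). Cdh8, a type II cadherin of cortical and hippocampal neurons, was lower in PVN (25.6 to 71.1 CPM, median 50.6, against 30.8 to 49.8 CPM, median 42.5), by -0.33 ± 0.10, with an adjusted p of 0.04996 that was 0.0540 with DESeq2 and 0.0569 without the filter on low counts.

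Cdh19, a type II cadherin of glial lineages, was higher with dexamethasone in PVN and dCA1. In PVN it ran from 1.43 to 25.1 CPM (median 15.6) in vehicle and from 4.38 to 36.6 CPM (median 24.0) in dexamethasone libraries, a change of 0.74 ± 0.19 (adjusted p = 0.0100). In dCA1 it ran from 4.04 to 19.9 CPM (median 12.1) and from 10.8 to 32.9 CPM (median 20.2), a change of 0.79 ± 0.19 (adjusted p = 0.00605). The groups overlapped in both regions, with 13 of 15 and 12 of 13 dexamethasone libraries above the vehicle median. The summed level of 5 oligodendrocyte markers had medians of 5048 and 4832 CPM in PVN and 2966 and 2716 CPM in dCA1 (vehicle and dexamethasone). None of the 5 passed in either region, and the part of oligodendrocytes in the change of Cdh19 was not tested.

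Among protocadherins, Pcdh11x, on the X chromosome (120290259 to 120910619), was higher in CER and vCA1. In CER it ran from 35.2 to 150 CPM (median 74.4) in vehicle and from 94.0 to 174 CPM (median 124) in dexamethasone libraries, a change of 0.67 ± 0.14 (adjusted p = 0.000695). In vCA1 it ran from 12.4 to 43.3 CPM (median 28.8) and from 27.7 to 74.4 CPM (median 46.4), a change of 0.69 ± 0.15 (adjusted p = 0.00209). All 15 dexamethasone libraries in CER and 14 of 15 in vCA1 were above the vehicle median. Its change was positive in 7 of 8 regions and -0.03 in vDG.

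Pcdh19, an X-linked delta-2 protocadherin that associates with N-cadherin (133582860 to 133688987, minus strand), was lower in dCA1. It ran from 185 to 362 CPM (median 257) in vehicle and from 136 to 281 CPM (median 160) in dexamethasone libraries, a change of -0.55 ± 0.11 (adjusted p = 0.000493), and 12 of 13 dexamethasone libraries were below the vehicle median. Pcdh1, a delta-1 member also found in airway epithelium, was lower in PVN (7.13 to 26.5 CPM, median 20.3, against 5.41 to 18.3 CPM, median 13.2), by -0.62 ± 0.19 (adjusted p = 0.0447). This call was lost with DESeq2 (adjusted p = 0.0586), without the filter on low counts (0.0616), with RIN as a covariate (0.0585), with date and plate in the model (0.0528) and with the replicate number as a block (0.066). Dentate granule markers moved in the same hippocampal punches, 3 of them higher in vCA1 (Dsp by 1.95, Npnt by 1.22 and C1ql2 by 1.08) and 2 lower in dCA1 (Plk5 by -0.82 and C1ql2 by -0.64). When the dentate level was a covariate, the 4 members called in dCA1 and the 3 in vCA1 were still called. Dsp, Npnt and Plk5 are themselves part of that level, and the part of dentate content in these calls was not tested.

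**Figure D4:**
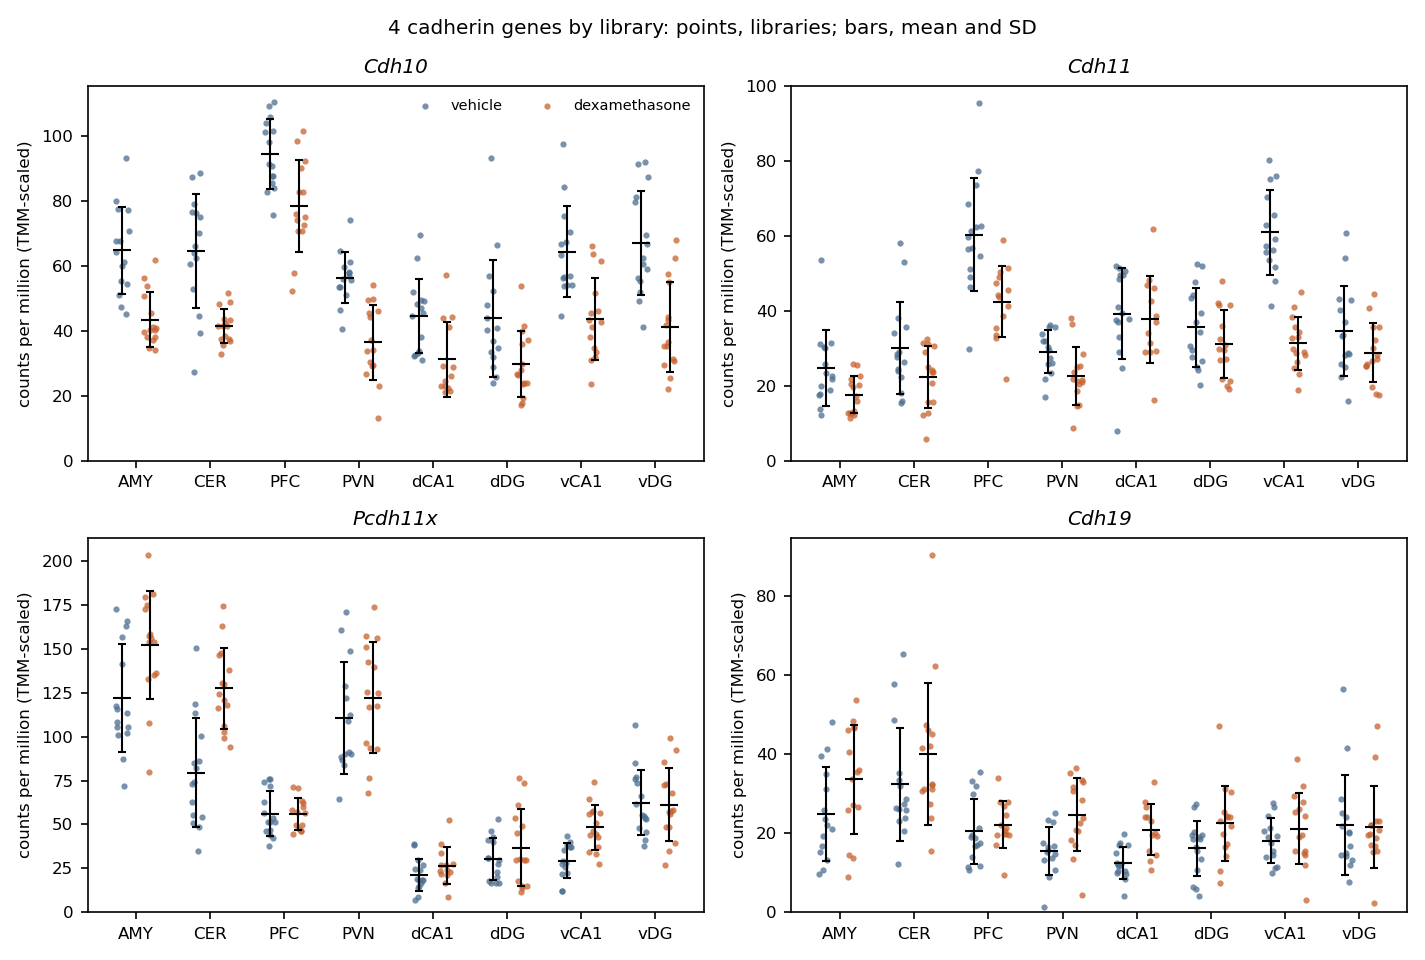
CPM in each library for Cdh10, Cdh11, Pcdh11x and Cdh19 (4 panels), by region and arm. Points are libraries and bars are the mean and SD of a group. In vCA1 the dexamethasone points of Cdh11 lie between 19.0 and 45.2 CPM and the vehicle points between 41.2 and 80.3 CPM.

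Whether the response differed among regions was tested directly. By the edgeR F test of the interaction of region and treatment, 0 of 37 members passed, beside 1.17% of all genes tested. At an unadjusted p under 0.05 there were 4, namely Cdh11 (p = 0.00264, adjusted p = 0.149), Pcdh11x (adjusted p = 0.356), Cdh9 (adjusted p = 0.440) and Cdh1 (adjusted p = 0.456), and a likelihood ratio test in DESeq2 called 0. A member called in some regions and not in others is therefore not shown to respond differently between them.

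Averaged over the 8 regions, with the libraries of an animal treated as correlated, 11 of the 37 members tested changed by limma's moderated test on voom values (20.9% of all genes tested), 2 higher (9.92%) and 9 lower (11.0%). The median change over the 37 members was -0.12, beside -0.01 over all genes tested, and 29 of the 37 had a negative estimate. Cdh10 fell by 0.55 ± 0.05 on the log2 scale (adjusted p = 1.04e-21) and Cdh11 by 0.41 ± 0.06 (adjusted p = 1.85e-10), both with lower estimates in all 8 regions. Cdh19 rose by 0.41 ± 0.09 (adjusted p = 9.64e-05) and Pcdh11x by 0.30 ± 0.07 (adjusted p = 0.000116).

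**Figure D5:**
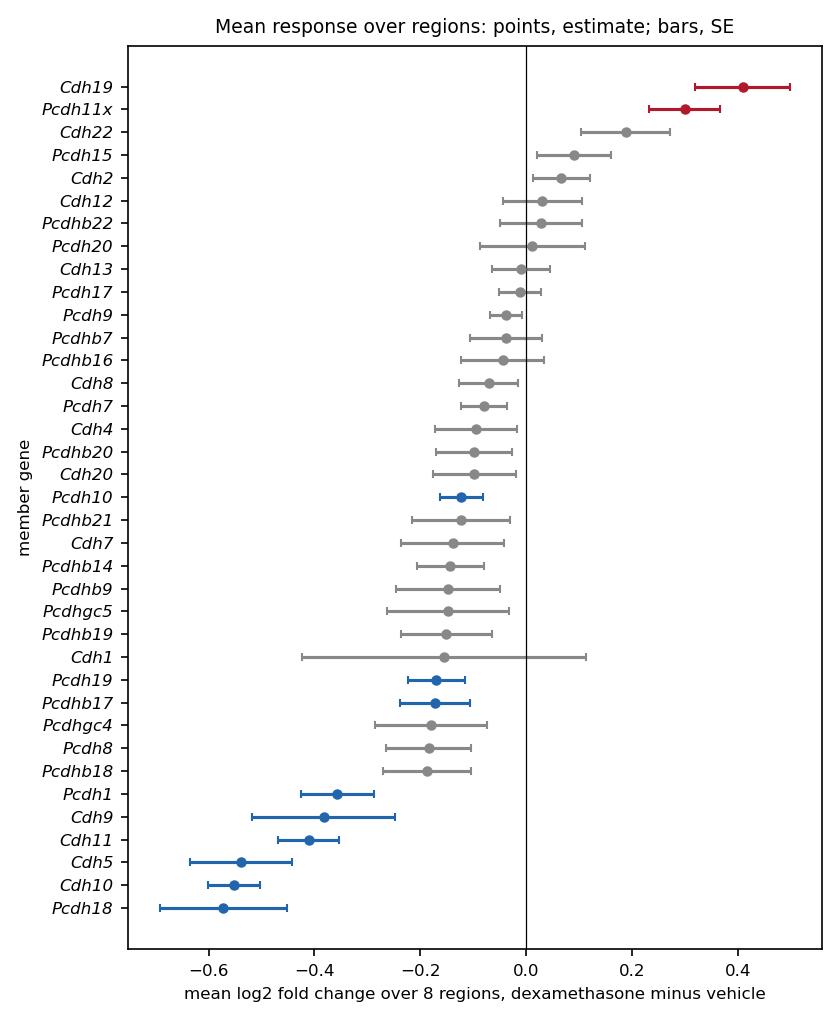
Mean log2 change with dexamethasone over the 8 regions for the 37 members tested, with SE bars. Red points rose and blue points fell at an adjusted p under 0.05 by limma, from Pcdh18 at -0.57 to Cdh19 at 0.41, and grey points did not pass.

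Cdh5 (VE-cadherin, the cadherin of endothelial junctions) fell by 0.54 ± 0.10 (limma adjusted p = 6.96e-07), although its counts were too low for a test in any single region. In AMY it ran from 6.26 to 12.3 CPM (median 9.45) in vehicle and from 1.64 to 10.8 CPM (median 4.67) in dexamethasone libraries, and in dDG from 2.74 to 15.1 CPM (median 10.4) and from 0 to 9.91 CPM (median 6.43). All 15 dDG dexamethasone libraries were below the vehicle median. Of 6 other endothelial markers, 4 fell on average (Cldn5 by 1.41, Slco1a4 by 0.74, Flt1 by 0.66 and Pecam1 by 0.17), Ly6c1 rose by 0.19 and Esam did not pass. Their summed level ran from 349 to 567 CPM in AMY vehicle and from 189 to 369 CPM in AMY dexamethasone libraries, and from 254 to 503 CPM and from 171 to 314 CPM in dDG. The part of endothelial content in the level of Cdh5 was not tested.

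Pcdh18 fell by 0.57 ± 0.12 (limma adjusted p = 3.84e-05) and passed in none of the 3 regions where it could be tested. In vDG it ran from 3.39 to 13.1 CPM (median 9.68) in vehicle and from 1.16 to 8.58 CPM (median 5.24) in dexamethasone libraries, with all 15 of the latter below the vehicle median. In AMY it ran from 4.05 to 35.5 CPM (median 18.1) and from 4.67 to 20.5 CPM (median 12.6), with a change of -0.59 that did not pass (edgeR adjusted p = 0.126). Pcdh1 fell by 0.36 ± 0.07 (limma adjusted p = 5.32e-06), and its 7 regional estimates were all negative, from -0.15 in dDG to -0.62 in PVN.

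The other members called in the mean response were Pcdh19 (-0.17 ± 0.05, limma adjusted p = 0.0111), Pcdh10 (-0.12 ± 0.04, 0.0158), Cdh9 (-0.38 ± 0.14, 0.0269) and Pcdhb17 (-0.17 ± 0.07, 0.0475). Pcdh10 had a negative estimate in all 8 regions, and its libraries ran from 138 to 262 CPM in vCA1 vehicle (median 203) and from 115 to 230 CPM with dexamethasone (median 177). Without the libraries that stand apart Pcdh10 was at -0.08 (adjusted p = 0.175). With counts summed per animal the adjusted p of Cdh9 was 0.103. The call of Pcdhb17 was lost without the libraries that stand apart (-0.15, adjusted p = 0.132), with the authors' libraries (0.0603), with date and plate in the model (0.0596) and with counts summed per animal (0.431). Pcdhb17 was the 1 cluster gene called, and with counts summed per animal another, Pcdhga11, was called in its place. Pcdhb17 ran from 13.7 to 35.9 CPM in dDG vehicle (median 21.6) and from 7.49 to 31.1 CPM with dexamethasone (median 15.0), and the 2 groups overlapped. Under alternatives the mean response also called Pcdh8, with date and plate in the model and without the libraries that stand apart. With the replicate number as a block it also called Cdh22.

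No cluster gene was called in any single region by the edgeR test without covariates, where the smallest adjusted p was 0.0713 (Pcdhb20 in AMY, -0.54). With date and plate in the model Pcdhb20 was called in AMY (-0.57, adjusted p = 0.0431). The summed beta genes averaged 160 ± 17.6 CPM in CER vehicle and 139 ± 21.4 CPM in CER dexamethasone libraries, and 160 ± 21.4 and 167 ± 20.6 CPM in vCA1. The summed gamma genes averaged 52.5 ± 13.2 CPM in vCA1 vehicle and 43.3 ± 10.2 CPM with dexamethasone. These sums are a description and carry no test.

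Markers of other cell types were read in the same limma fit. Those of microglia fell in 3 of 5 cases (Cx3cr1, P2ry12 and Tmem119), of astrocytes in 3 of 6 with 1 rise, of mural cells in 2 of 4, of oligodendrocytes in 2 of 5 and of their precursors in 1 of 3 (Cspg4). Of the general neuronal markers 0 of 6 passed, while markers of single neuron types fell in 1 of 8 cases for dentate granule cells (Prox1, -0.28), 1 of 4 for CA1 pyramidal cells (Pou3f1, -0.32) and 1 of 2 for Purkinje cells (Car8, -0.42). Of 3 thalamic markers, Prkcd rose and Lef1 fell. No marker of fibroblasts and meninges passed in the mean over regions (0 of 4) and none of the choroid plexus (0 of 4). In single regions, edgeR called the choroid plexus marker Ttr lower in vCA1 (-2.27, adjusted p = 0.00692), where its mean was 164 ± 374 CPM in vehicle and 34.0 ± 22.6 CPM in dexamethasone libraries, and the fibroblast marker Col1a2 higher in PVN (0.50, adjusted p = 0.0303). The part of these cells in the changes of the members was not tested.

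Genes that work with cadherins were read from separate lists. Of 18 catenins and junction partners, 16 were tested in the mean response, and 2 rose (Arvcf, a p120-type catenin, by 0.90 and Pkp2, a desmosomal plakophilin, by 0.77) and 2 fell (Jup, plakoglobin, by 0.37 and Vcl, vinculin, by 0.24). Arvcf was higher in 5 regions, from 0.54 in vCA1 to 1.72 in CER, and Pkp2 in 3, by 1.70 in PFC, 1.02 in vDG and 0.63 in dDG (edgeR). Of 24 other cadherin superfamily genes 11 were tested and Dsg2, a desmosomal cadherin, fell by 0.48. Of 7 genes for cadherin processing 6 were tested, with Furin, a proprotein convertase that processes cadherins, higher by 0.12 and Capn1 lower by 0.23. None of the 11 tested genes for promoter choice in the protocadherin clusters passed in the mean response, and of 10 intracellular partners Ptk2, focal adhesion kinase, fell by 0.18. In single regions, edgeR also called Nectin3 (-0.76), Vcl (-0.50) and Ptk2b (0.27) in PFC, Vcl (-0.42) in PVN, Jup (-0.71) in vCA1, Fat4 (-0.59) and Ptk2 (-0.36) in dCA1, and Ctcf (-0.31), the factor bound at cluster promoters, in CER.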

How the data were processed

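RNA of 235 punches from 30 mice was sequenced as 3′ tags with unique molecular identifiers (UMIs), per the labels' protocols. Tools and the build were FastQC 0.11.4, cutadapt, UMI-tools 0.5.4, STAR 2.6.0a, featureCounts 1.6.4, DESeq2 1.30.1, R 4.0.5 and mm10, per the submitters' processing notes. The values used are the authors' deposited raw counts per gene from featureCounts. The strand setting and the annotation version are not given in the sources used here. The authors' deposited variance-stabilised log2 tables, with 228 of the libraries, served only to know which libraries those held.

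Symbols were matched for 27645 of 27998 identifiers. The rule's mean CPM used library totals, and printed CPM were scaled by TMM factors. Each region was fitted with edgeR 4.0.16 (quasi-likelihood, TMM, filterByExpr, no covariate). The SE printed with an edgeR estimate is the size of the estimate divided by the square root of its F statistic. The interaction used all libraries. The mean response used limma 3.58.1 (voom, with the animal as a correlated block), and comparisons of regions used vehicle libraries with the animal as a fixed block. Adjusted p-values are Benjamini-Hochberg values over all genes tested, with a threshold of 0.05. Replicates are separate animals. Library totals, 268538 to 1451422, limit the precision of low genes. The fits were tested on simulated data.

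All members could be named. Values by group are given for members past the threshold for dexamethasone and, for each region, the 2 members highest above the other 7 at 5 CPM or more. Members and lists were chosen with earlier results of these data known. Alternatives were DESeq2 1.42.0, upper-quartile factors, no filter, replicate block, date and plate, RIN, dentate level, the authors' libraries, counts summed per animal, the other arm, and leaving out 29 libraries, with the last chosen after seeing the data. R 4.3.3, Python 3.11.15, pandas 2.3.3, numpy 2.4.6 and scipy 1.17.1 were used.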

Additional observations from a re-analysis of the deposited data

How the results depend on the processing

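Of the recomputed counts of members, 156 under settings listed at the outset and 16 without the libraries that stand apart were within 1.5 times the value reported, and 10 and 2 were not. In AMY the count of members changed by dexamethasone was 1 and became 4 with the replicate number as a block, 4 with date and plate in the model and 3 without the libraries that stand apart. In PVN it was 4 and became 2 with DESeq2 and 2 without the filter on low counts, both losing Cdh8 and Pcdh1. In dDG it was 0 and became 1 with DESeq2 (Cdh1), and 1 with each of the dentate level, date and plate, and the replicate block (Cdh10). Between dCA1 and vCA1 the count of 15 became 0 with the dentate level as a covariate, and between dDG and vDG the count of 11 became 2 with that covariate and 2 without the libraries that stand apart, with 6 animals left. The dentate level turned the sign of Pcdhb7 (-1.21) and Pcdh7 (0.14) between dCA1 and vCA1 and of Pcdh17 (-0.033) between dDG and vDG, none of them past the threshold. In dexamethasone libraries the dCA1 to vCA1 difference had the other sign for Pcdh19 (-0.20) and Cdh11 (0.25), and neither passed. The cause of these shifts was not tested. Among the values of single named members, 320 under the listed settings and 46 without those libraries kept their direction and call, 38 and 16 lost the call with the same direction, and 5 under the listed settings changed sign. The interaction gave 0 members under each alternative tried.

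Vehicle and dexamethasone libraries of a region share replicate numbers. The correlation of deviations of same-numbered libraries had medians from 0.0554 in vCA1 to 0.246 in PFC, with values down to -0.165 in AMY, beside medians of -0.0325 in AMY to -0.00254 in vCA1 for libraries of other numbers. Between 6 of 14 pairs (vCA1) and 13 of 15 pairs (dDG) were over 0.1. Per the labels, same-numbered libraries share a plate and mostly a punching date. The labels do not say that a number marks a batch and not every pair was over 0.1, so the block was kept as an alternative. The block added Cdh19, Pcdh1 and Pcdh11x in AMY, Cdh10 in dDG, Pcdh8 in dCA1 and Cdh11 in PVN, where Pcdh1 was lost. Beside AMY and dDG, it gave 5 members in dCA1, 4 in PVN, 3 in vCA1, 2 in PFC, 2 in CER and 1 in vDG, and 12 in the mean response. Without the animal block, 26 members differed among regions, 15 between dCA1 and vCA1 and 11 between dDG and vDG, the same genes as with it. Depth limited the tests most for the cluster genes and Cdh18, of which 13 did not pass the filter.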
